A study of Mus musculus with 28 samples.

Results

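The genes described here are 10 that code for subunits, partners and effectors of the MuvB and DREAM complexes, chosen by name: Lin9, Lin37, Lin52, Lin54, Mybl2, Foxm1, E2f4, Tfdp1, Rbl1 and Rbl2. They are 10 of the 23951 gene symbols in the expression tables. MuvB is a cell cycle complex whose core holds LIN9, LIN37, LIN52, LIN54 and the histone-binding protein RBBP4, which is also a subunit of the nucleosome remodelling and deacetylase complex NuRD. In resting cells MuvB joins E2F4, its dimer partner DP1 (Tfdp1) and the pocket proteins p130 (Rbl2) or p107 (Rbl1) to form DREAM, which keeps cell cycle genes silent. In cycling cells it leaves these repressors and joins first B-MYB (Mybl2) and then FOXM1, which activate genes of mitosis.

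All samples came from the NIH/3T3 Tet-On 3G line, mouse embryonic fibroblasts that grow without limit and carry a transactivator switched on by doxycycline, kept in medium with serum. RNA was sequenced from 3 H3.3 knockdown clones, transduced with OFP-H3.3A and GFP-H3.3B constructs, and from 2 control clones, transduced with GFP-Luciferase and OFP-Luciferase constructs and labelled wild type. The treatment label of all 5 clones names FLAG/HA-H3.3 fibroblasts and doxycycline. Chromatin immunoprecipitation with sequencing (ChIP-seq) of RBBP4 and of the NuRD subunit MTA1 was done in cells with the same knockdown or luciferase constructs, with 1 library per protein and condition. Unmodified cells gave 1 library each for 6 NuRD subunits and for H3K27ac, H3K4me3 and H3K9ac. Cells carrying an HA/FLAG-H3.3 construct gave 2 HA-H3.3 libraries under aphidicolin and doxycycline and 1 sequential ChIP, FLAG first and RBBP4 second. Each RNA library is 1 clone, so p-values measure the spread between these clones, and nothing in the labels pairs a knockdown clone with a control clone.

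The targeted genes were lower in every knockdown clone. H3f3a was at 71.8, 35.6 and 5.05 FPKM (fragments per kilobase of transcript, scaled to library size) in knockdown clones 1 to 3, against 128.3 and 143.5 FPKM in control clones 1 and 2. H3f3b was at 144.4, 104.3 and 51.7 FPKM in the knockdown clones, against 249.4 and 237.1 FPKM in the control clones. The groups did not overlap for either gene, but neither difference passed limma's moderated test over all genes (adjusted p = 0.516 for H3f3a and 0.469 for H3f3b). Reads shared with near-identical copies of these genes make their FPKM uncertain. Knockdown clone 1 kept the most of both transcripts and clone 3 the least. All 10 fibroblast markers were above 1 FPKM on average, with a summed level of 8163 to 9680 FPKM in knockdown clones and of 6535 to 7201 FPKM in control clones. Markers of epithelial, haematopoietic, endothelial and neural cells summed to at most 6.51, 21.5, 10.8 and 1.54 FPKM in knockdown clones, against at most 2.66, 15.1, 8.53 and 0.827 FPKM in control clones. Skeletal muscle markers, led by Acta1, summed to 26.6 to 45.6 FPKM in knockdown clones, against 46.1 to 55.9 FPKM in control clones. Knockdown clone 1 stood apart: it lay at 72.6 on principal component 1, which held 39.1% of the variance, and the other 4 libraries lay between -40.1 and 0.59.

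The listed genes lie on 7 chromosomes. In the build of the files, mm9, the MuvB core genes are Lin9 at chr1:182571465-182620818, Lin37 at chr7:31340460-31344665, Lin52 at chr12:85792458-85872483 and Lin54 at chr5:100871058-100929658. Mybl2 lies at chr2:162880371-162910423 and Foxm1 at chr6:128313012-128325904. The E2F subunits lie on chromosome 8, E2f4 at chr8:107821563-107829270 and Tfdp1 at chr8:13338751-13378448. Of the pocket protein genes, Rbl1 lies at chr2:156971630-157030270 and Rbl2 at chr8:93593956-93647743. Rbbp4 itself lies at chr4:128984344-129012614.

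RefSeq promoter windows (GRCm38.p6, 250 bases before to 50 bases after the annotated start of the gene) were matched for 7 of the 10 genes, all but Lin9, E2f4 and Foxm1. The 150 bases before the start are shown for the genes at which the RBBP4 peaks described further on were found (Mybl2, Rbl1, Tfdp1 and Lin54), for 2 MuvB core genes without such a peak (Lin37 and Lin52) and for Rbbp4. They are read 5′ to 3′ on the strand of the gene, at chr2:163054485-163054634 (Mybl2, plus strand), chr2:157204535-157204684 (Rbl1, minus), chr8:13338601-13338750 (Tfdp1, plus), chr5:100500640-100500789 (Lin54, minus, the more upstream of its windows), chr7:30559647-30559796 (Lin37, minus), chr12:84451358-84451507 (Lin52, plus) and chr4:129335371-129335520 (Rbbp4, minus). Capitals mark matches, on either strand, to E2F-type letters, which are TTCCCGC, or else TTCGCGC, or else TTGCCGC, or else TTGGCGC, and also to GGCGGGA, which was added after the sequences were seen.
Mybl2: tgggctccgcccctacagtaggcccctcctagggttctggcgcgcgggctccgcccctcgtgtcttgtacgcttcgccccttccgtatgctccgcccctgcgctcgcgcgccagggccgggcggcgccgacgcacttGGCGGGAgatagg
Rbl1: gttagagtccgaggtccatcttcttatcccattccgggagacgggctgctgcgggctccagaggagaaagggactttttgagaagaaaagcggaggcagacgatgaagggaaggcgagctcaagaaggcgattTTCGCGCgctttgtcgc
Tfdp1: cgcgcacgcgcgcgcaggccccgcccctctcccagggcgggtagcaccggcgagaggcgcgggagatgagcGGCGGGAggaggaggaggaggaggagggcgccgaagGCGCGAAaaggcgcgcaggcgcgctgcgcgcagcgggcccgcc
Lin54: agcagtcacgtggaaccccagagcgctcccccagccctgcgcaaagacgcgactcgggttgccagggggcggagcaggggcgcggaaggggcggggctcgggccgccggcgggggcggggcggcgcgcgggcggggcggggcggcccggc
Lin37: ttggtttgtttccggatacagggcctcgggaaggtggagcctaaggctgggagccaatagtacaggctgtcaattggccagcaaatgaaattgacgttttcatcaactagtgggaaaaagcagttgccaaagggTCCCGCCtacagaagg
Lin52: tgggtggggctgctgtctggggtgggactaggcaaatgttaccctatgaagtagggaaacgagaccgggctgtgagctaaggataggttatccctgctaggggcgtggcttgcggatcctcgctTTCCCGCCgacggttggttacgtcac
Rbbp4: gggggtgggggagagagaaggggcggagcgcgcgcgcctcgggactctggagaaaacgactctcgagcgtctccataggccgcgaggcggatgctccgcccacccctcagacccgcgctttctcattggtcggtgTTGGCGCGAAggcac

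The original E2F-type letters were found in the 300-base windows of Lin52, Rbl1 and Tfdp1, 3 of 7 genes (42.9%), against 20.3% of the 8587 expressed genes with a window and 9.57% of all 32851 windows. The Rbl1 match, TTCGCGC, lay 17 to 11 bases before the start. Tfdp1 held the same letters on the other strand, 43 to 37 bases before the start, and Lin52 held TTCCCGC 26 to 20 bases before it. Mybl2 held no match to the original letters and a GGCGGGA 13 to 7 bases before its start. GGCGGGA alone was in 5 of the 7 genes, against 24.7% of expressed genes and 11.3% of all windows. With GGCGGGA added to the original letters, 6 of the 7 genes held a match, all but Rbl2. The share of expressed genes with any of these letters was not counted. In the window of Rbbp4, TTGGCGC and a reverse-strand TTCGCGC overlapped at 15 to 6 bases before the start. A cell cycle homology region, the letters TTTGAA or TTCGAA to which LIN54 is known to bind, was found for Lin37, Lin54 and Rbl2, again 3 of 7 genes, against 16.1% of expressed genes and 19.2% of all windows. These are matches of letters only, in 1 window per annotated start.

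Transcript levels of the 10 genes in the knockdown clones were compared with those in the control clones. On average 8 of the 10 were lower in knockdown clones (7 after quantile normalization, which turned Lin52), and 59.9% of the 11728 genes tested were lower. None of the 10 passed the test over all genes (limma on log2(FPKM + 1), Benjamini-Hochberg adjusted p under 0.05), and 4 of the 11728 genes (0.0341%) did, all of them short RNA genes listed at 0 in every clone of 1 group. Of these calls 3 were lower (0.0256%) and 1 higher (0.00853%) in knockdown clones. By unadjusted p under 0.05, E2f4 alone of the 10 was past the line, as were 9.81% of all genes. All 10 listed genes had a mean of at least 1 FPKM and were tested. In these bulk samples, fewer cells that express a gene and less RNA per cell cannot be told apart.

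**Figure D1:**
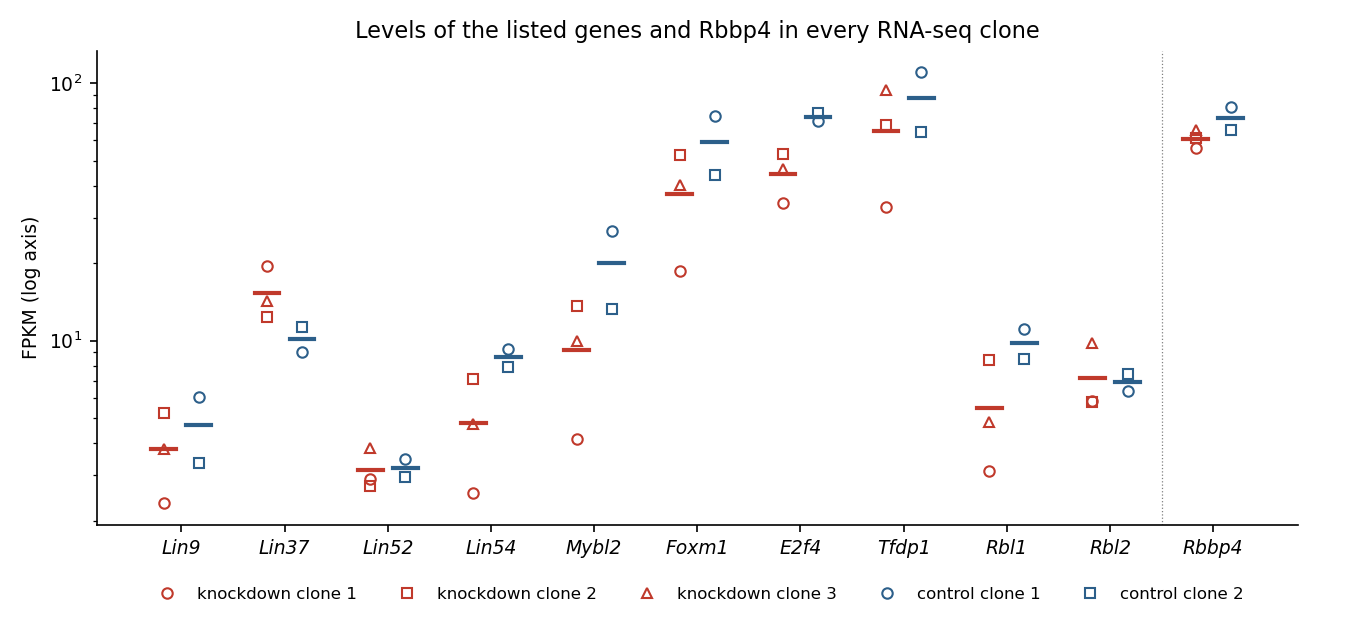
FPKM (log axis) of the 10 listed genes and of Rbbp4 in the 3 knockdown clones (left of each pair) and the 2 control clones (right), 1 point per clone, with a line at the group mean. The groups do not overlap for Lin37, Lin54, E2f4, Rbl1 and Rbbp4, and knockdown clone 1 is the lowest point for 7 of the 10 listed genes. Of all genes tested, 21.2% had every knockdown clone below both control clones and 11.4% above both. Knockdown clone 1 was lowest for 35.7% of them.

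Among the listed MuvB core genes, 2 had groups that did not overlap, in opposite directions. Lin54, the DNA-binding subunit, was at 2.56, 7.10 and 4.74 FPKM in knockdown clones 1 to 3, against 9.31 and 7.93 FPKM in control clones 1 and 2. Every knockdown clone was below both control clones, an order found for 21.2% of all genes. The difference on the log2(FPKM + 1) scale was -0.80 ± 0.37 (SE), with an adjusted limma p of 0.520. Lin37, which is needed for repression by DREAM but not for assembly of MuvB, was at 19.5, 12.3 and 14.3 FPKM in knockdown clones, against 9.04 and 11.3 FPKM in control clones. It was the 1 listed gene with every knockdown clone above both control clones (0.53 ± 0.25, adjusted p = 0.520), an order found for 11.4% of all genes. Hspb6 ends 1 bp from the Lin37 locus and had 17.5, 20.4 and 25.6 FPKM in knockdown clones, against 15.7 and 17.5 FPKM in control clones. The annotated loci do not overlap, but without strand information reads running past an annotated end cannot be told apart.

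The other listed MuvB core genes, Lin9 and Lin52, had overlapping groups. Lin9, a core subunit that B-MYB contacts, was at 2.34, 5.23 and 3.79 FPKM in knockdown clones, against 6.05 and 3.34 FPKM in control clones. The control clones differed from each other by 0.70 on the log2 scale, more than the groups did (-0.26 ± 0.36). Lin52, whose phosphorylation by DYRK1A is known to favour DREAM, was at 2.90, 2.73 and 3.82 FPKM in knockdown clones, against 3.47 and 2.96 FPKM in control clones. Its difference was -0.03 ± 0.21, within the spread of either group. Rbbp4, the subunit shared with NuRD, was at 55.9, 61.2 and 65.7 FPKM in knockdown clones, against 81.1 and 65.9 FPKM in control clones (-0.26 ± 0.20, adjusted p = 0.624). Its groups only just failed to meet, at 65.7 FPKM in knockdown clone 3 and 65.9 FPKM in control clone 2. FPKM is a level per length, so these values can be set beside each other: Rbbp4 averaged 65.9 FPKM over the 5 clones, and the highest MuvB core gene of the other 4, Lin37, 13.3 FPKM.

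The activating partners overlapped between the groups and spread widely within them. Mybl2 was at 4.16, 13.6 and 9.95 FPKM in knockdown clones, against 26.7 and 13.2 FPKM in control clones. Knockdown clone 2 lay above control clone 2, so the groups overlapped, and the difference of -1.08 ± 0.53, the largest in size among the 10 over all clones, had an adjusted p of 0.523. Without control clone 1 it was -0.60, smaller in size than that of E2f4 (-0.78), Lin54 (-0.70) and Rbl1 (-0.63), and without knockdown clone 1 it was -0.65. Foxm1 was at 18.6, 52.5 and 40.4 FPKM in knockdown clones, against 74.2 and 44.1 FPKM in control clones. It too had knockdown clone 2 above control clone 2 (-0.73 ± 0.49, adjusted p = 0.595). On the log2 scale, Mybl2 ranged over 1.50 within the knockdown clones and over 0.96 within the control clones, and Foxm1 over 1.45 and 0.74.

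E2f4, the main repressor E2F of resting cells, was at 34.2, 53.0 and 46.5 FPKM in knockdown clones, against 71.1 and 76.3 FPKM in control clones. Every knockdown clone was below both control clones and the control clones lay close together. The difference was -0.74 ± 0.24 with an adjusted p of 0.479, the smallest among the 10. Tfdp1, which codes for the dimer partner DP1, was at 33.0, 69.0 and 94.1 FPKM in knockdown clones, against 110.2 and 64.9 FPKM in control clones. Its groups overlapped widely, with 2 knockdown clones above control clone 2 (-0.49 ± 0.50, adjusted p = 0.702).

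The pocket protein genes differed from each other. Rbl1, whose protein p107 is made mainly in cycling cells, was at 3.13, 8.45 and 4.82 FPKM in knockdown clones, against 11.1 and 8.47 FPKM in control clones. Every knockdown clone was below both control clones, although clone 2 was almost level with control clone 2 at 8.45 against 8.47 FPKM, and the difference was -0.81 ± 0.38 (adjusted p = 0.520). Rbl2, whose protein p130 is the main pocket protein of resting cells, was at 5.84, 5.77 and 9.82 FPKM in knockdown clones, against 6.40 and 7.45 FPKM in control clones. Knockdown clones 1 and 2 were below both control clones and clone 3 above both, and the difference was 0.01 ± 0.27.

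**Figure D2:**
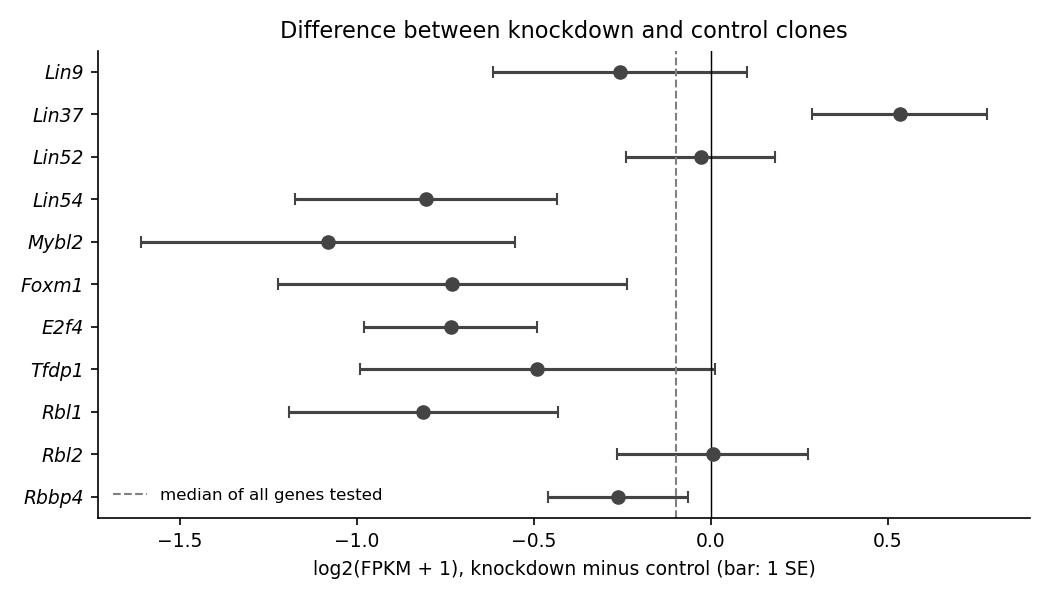
Difference in log2(FPKM + 1), knockdown minus control, for the 10 listed genes and Rbbp4, with 1 SE from the limma fit and a dashed line at the median of all genes tested (-0.10). Mybl2 lies lowest at -1.08 and Lin37 is the highest at 0.53.

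Lin54, E2f4 and Rbl1, 3 of 10, were thus lower in all knockdown clones, an order held by 21.2% of all genes. The median difference of the 10 genes was -0.61, against -0.10 over all genes tested. It rested largely on 2 clones: it was -0.19 without knockdown clone 1, -0.24 without control clone 1 and -0.27 with array weights, which weight each clone by its agreement with the fit. Knockdown clone 1 had the lowest value of all 5 clones for 7 of the 10 genes, as for 35.7% of all genes, and control clone 1 the highest for 6 of the 10, as for 27.4% of all genes. Set against the control mean, the median of the 10 genes was -1.21 in knockdown clone 1, -0.20 in clone 2 and -0.35 in clone 3, against 0.14 in control clone 1 and -0.14 in control clone 2. Knockdown clone 1, lowest for most of these genes, was the clone that kept the most H3f3a and H3f3b, and whether the difference between clones bears on that was not tested. The authors' confidence bounds put the counting error of these values at 2.79% to 16.0% of FPKM, from about 157 to 5144 estimated fragments per gene and library.

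Over the 5 clones the 10 genes followed different courses. The closest pair in centred log2(FPKM + 1) was Lin54 and Rbl1 (root mean square difference 0.09), followed by Lin52 with Rbl2 (0.17) and Mybl2 with Foxm1 (0.19), and the farthest was Lin37 and Mybl2 (1.12). Among all genes, the 3 most like Mybl2 were Mcm3 (0.05), Mcm6 (0.06) and Wdhd1 (0.09). Mcm3, a subunit of the replicative helicase, was at 20.4, 59.5 and 47.8 FPKM in knockdown clones, against 111.6 and 60.9 FPKM in control clones. Among the 3 most like Foxm1 were Cdca8 and Uchl5 (0.06 each), and among the 3 most like Rbl1 were Plk4 (0.05) and 2810408I11Rik (0.08). With 5 clones such likeness is a description of these libraries.

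Genes around the complexes were described from lists of known members, and 0 passed the limma test in each list. By unadjusted limma p under 0.05, 0 of 6 partners, 1 of 5 other E2F genes and 2 of 14 regulators were past the line. So were 2 of 28 G1/S targets and 0 of 39 G2/M targets, against 9.81% of all genes tested. Of all genes tested, 59.9% were lower on average and 21.2% were lower in every knockdown clone. DREAM and MuvB partners, namely the paralogues of listed genes, Rb1 and the histone-binding subunits, had 4 of 6 tested genes lower and a median of -0.14. Rbbp7, the paralogue of Rbbp4, was at 110.1, 156.9 and 156.5 FPKM in knockdown clones, against 171.0 and 140.0 FPKM in control clones. Mybl1 and E2f5, which had the largest differences in size among the partners, differed by 0.42 ± 0.39 and -0.28 ± 0.46, and Myb was below the filter. All 5 tested genes of the other E2F factors were lower, with a median of -0.53, which was -0.21 without knockdown clone 1, -0.30 without control clone 1 and -0.93 without control clone 2. E2f1, an activator of S phase genes, was at 18.9, 23.2 and 18.1 FPKM in knockdown clones, against 47.8 and 34.7 FPKM in control clones (-0.99 ± 0.23, adjusted p = 0.428), without overlap. E2f2 was at 0.356, 1.16 and 1.68 FPKM in knockdown clones, against 2.79 and 2.43 FPKM in control clones, again without overlap (adjusted p = 0.512). E2f3 differed by -0.21 ± 0.30, and E2f6 was listed at 0 in every clone. The regulators, namely kinases, cyclins, inhibitors and Trp53, had 11 of 14 lower and a median of -0.18. Ccnd3, a D-type cyclin that activates CDK4 and CDK6, was at 41.5, 40.5 and 38.7 FPKM in knockdown clones, against 83.9 and 78.7 FPKM in control clones (-0.997 ± 0.17, adjusted p = 0.401), without overlap. Ccnd1, another D-type cyclin, ranged over 14.4, 48.3 and 175.5 FPKM in knockdown clones, against 120.9 and 68.2 FPKM in control clones. Cdk4 and Trp53, the regulators of highest level, differed by -0.18 ± 0.23 and -0.14 ± 0.20, Dyrk1b was below the filter and Cdkn2a was listed at 0 in every clone.

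Among targets of the complexes, the lowest medians were again in knockdown clone 1. All 28 G1/S targets, E2F-type genes of DNA replication, were lower on average in knockdown clones, as were 59.9% of all genes tested. Their median was -0.90, and 11 of 28 were lower in every knockdown clone, against 21.2% of all genes tested. The median was -0.50 without knockdown clone 1, -0.46 without control clone 1 and -0.49 with array weights. Mcm2 was at 17.1, 58.7 and 48.2 FPKM in knockdown clones, against 133.2 and 75.6 FPKM in control clones (-1.43 ± 0.59, adjusted p = 0.512), without overlap. Mcm5, Mcm7 and Pcna, also replication factors, differed by -1.42 ± 0.65, -1.23 ± 0.55 and -0.81 ± 0.43. Of the 39 G2/M targets, which MuvB binds with B-MYB or FOXM1, 37 were lower on average, against 59.9% of all genes tested. In every knockdown clone 3 of 39 were lower, against 21.2% of all genes tested, and the list median was -0.31. The direction of this median rested on knockdown clone 1: without it the median was 0.0786, and with array weights 0.14. Without control clone 1 it was -0.0549, and leaving out any of the other 3 clones gave -0.60 to -0.475. Aurka, a mitotic kinase, was at 13.7, 39.2 and 22.1 FPKM in knockdown clones, against 55.5 and 43.0 FPKM in control clones (-1.06 ± 0.45, adjusted p = 0.512), without overlap. Aurkb differed by -0.96 ± 0.53, and Ube2c and Cdc20, which act in the destruction of mitotic proteins, by -0.71 ± 0.46 and -0.55 ± 0.49. The list medians against the control mean were -1.73, -0.38 and -0.58 for G1/S targets in knockdown clones 1 to 3, against 0.36 and -0.36 in the control clones. For G2/M targets they were -1.14, 0.20 and -0.17 in knockdown clones, against 0.26 and -0.26 in the control clones. Knockdown clones 2 and 3 thus lay between the controls, and clone 1 lay below both.

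**Figure D3:**
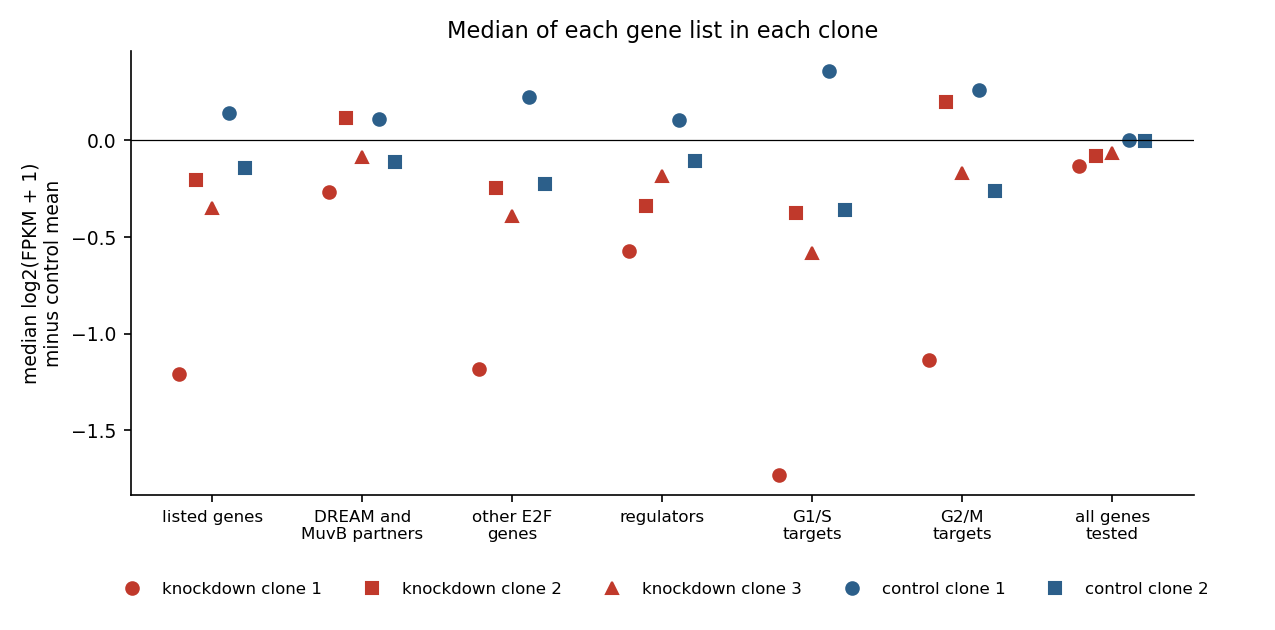
Median log2(FPKM + 1) of each list minus the control mean, 1 point per clone, knockdown clones in red on the left and control clones in blue on the right of each list. Knockdown clone 1 is the lowest point in every list, at -1.21 for the listed genes and -1.73 for the G1/S targets, while the medians of all genes tested lie between -0.13 and 0.00.

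RBBP4 and MTA1 peaks near the listed genes were then compared between knockdown and control cells. A peak was counted where at least 1 base lay within 2 kb of either end of the mm9 locus. RBBP4 peaks were found at Lin54, Mybl2, Rbl1 and Tfdp1 in knockdown cells, 4 of 10, and at Mybl2, Rbl1 and Tfdp1 in control cells, 3 of 10. Over all 11728 expressed genes the shares were 16.0% in knockdown cells and 15.2% in control cells. No listed gene had an MTA1 peak in knockdown cells and 1, Mybl2, had one in control cells, where 3.89% and 3.65% of expressed genes had one. With 1 library per condition there is no replicate check and no test, and a gain or loss cannot be told apart from a peak that crossed the calling limit.

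The strongest of these peaks lay at the start of Mybl2. In knockdown cells 1 RBBP4 peak, chr2:162880182-162880573, ran from 188 bases before to 203 bases after the locus start, with a score of 323.3, above 96.0% of that list. The score is the authors' own, a peak caller's value of at least about 50 that ranks peaks within a list. In control cells there were 2 RBBP4 peaks, chr2:162880209-162880532 (score 181.2) and chr2:162880543-162881064 (170.7), above 85.9% and 84.8% of their list. The knockdown peak shared 324 bases with the first and 31 bases with the second. The MTA1 peak of control cells, chr2:162880202-162880354, had a score of 53.2, near the lowest of its list (50.0). The GGCGGGA shown in the Mybl2 sequence lies 13 to 7 bases before the RefSeq start. That distance is inside the span of the knockdown RBBP4 peak and of the first control peak, but not of the second. This holds if both builds place the start at the same base, which was not tested.

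At Tfdp1 the RBBP4 peaks lay at or just before the start. The knockdown peak, chr8:13338398-13338854, ran from 352 bases before to 104 bases after the locus start with a score of 170.1, and the control peak, chr8:13338388-13338677, from 362 to 73 bases before it with a score of 122.9. They shared 280 bases. The reverse-strand TTCGCGC of Tfdp1, 43 to 37 bases before the RefSeq start, lies by distance inside the knockdown peak and outside the control peak. At Rbl1, a minus-strand gene whose start is the locus end, both peaks lay upstream: chr2:157030423-157030630 in knockdown cells (score 105.5) and chr2:157030421-157030764 in control cells (74.7), from about 150 bases outside the locus, with 208 bases shared. The TTCGCGC of Rbl1, 17 to 11 bases before the RefSeq start, lies by distance outside both peaks. These placements too hold only if both builds place the start at the same base, which was not tested. The Lin54 peak of knockdown cells, chr5:100929461-100929630, lay 197 to 28 bases inside the locus end and had a score of 64.6, above 42.3% of its list. Among peaks with a score of at least 100 the count was 3 in knockdown cells (Mybl2, Rbl1 and Tfdp1) and 2 in control cells (Mybl2 and Tfdp1).

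At its own gene, RBBP4 had 2 peaks in knockdown cells, with scores of 106.1 and 71.4, and 1 wider peak in control cells with a score of 417.2. All lay at the Rbbp4 locus end, which is the start of this minus-strand gene, and MTA1 was found there too, with a score of 66.3 in knockdown cells and 172.3 in control cells. Zbtb8os starts 655 bp from this locus end, so these peaks may belong to either gene. Rbbp4 was the 1 gene of the 11 with an MTA1 peak nearby in both conditions. None of the 6 sequential ChIP peaks, which mark chromatin holding both tagged H3.3 and RBBP4, lay within 2 kb of an end of a listed gene, and 8 expressed genes (0.0682%) had one.

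The lists of partners and targets held RBBP4 peaks in different shares, against 16.0% of all expressed genes in knockdown cells and 15.2% in control cells. Of the 39 G2/M targets, 30 (76.9%) had an RBBP4 peak in knockdown cells and 20 (51.3%) in control cells. Of these genes 18 were shared, which is 60.0% of the knockdown genes and 90.0% of the control genes, and Aurka and Kif11 had a peak in control cells alone. Over all expressed genes 1029 were shared, 54.7% of the knockdown and 57.6% of the control genes. Of the 28 G1/S targets, 11 (39.3%) had a peak in knockdown cells and 6 (21.4%) in control cells. MTA1 peaks were at 0 of 39 G2/M targets and 0 of 28 G1/S targets in both conditions. They were at 3.89% of expressed genes in knockdown cells and 3.65% in control cells, so 0 in lists of this size is near the background. The sequential ChIP peaks lay at 3 G2/M targets: Aurkb, Cdc25c and Kif2c, which code for a mitotic kinase, a phosphatase that activates CDK1 and a microtubule-depolymerising kinesin. Over all expressed genes 0.0682% had such a peak. The promoter letters were counted in the lists as well, with a cell cycle homology region in 75.8% of 33 G2/M targets and 17.4% of 23 G1/S targets with a window, and original E2F-type letters in 15.2% and 69.6%. Of expressed genes with a window, 16.1% held a cell cycle homology region and 20.3% original E2F-type letters.

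**Figure D4:**
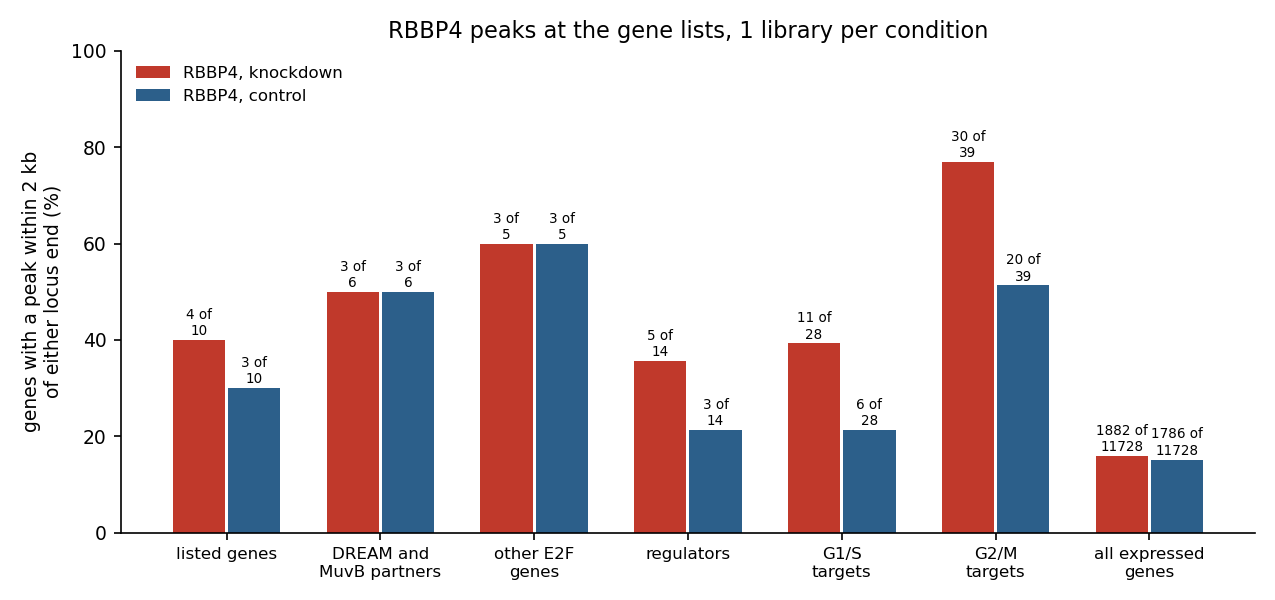
Share of the expressed genes of each list with an RBBP4 peak within 2 kb of either locus end, knockdown cells (red, left) and control cells (blue, right), 1 library each, with the counts above the bars. The listed genes stand at 40.0% in knockdown and 30.0% in control cells, the G2/M targets at 76.9% and 51.3%, and all expressed genes at 16.0% and 15.2%.

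Histone marks of active promoters were found at the listed genes in unmodified cells. H3K4me3, a mark of promoters, had a peak at 10 of 10, where 91.7% of expressed genes had one, and H3K9ac, an acetylation of active promoters, also at 10 of 10, where 86.2% did. These shares are near the background. H3K27ac, an acetylation of active promoters and enhancers, had peaks at Lin9, E2f4, Rbl1, Tfdp1 and Foxm1, 5 of 10, where 64.9% of expressed genes had one. Rbl1 had the strongest, with a score of 306.1, and the others had scores of 53.7 to 97.7. An H3K4me3 peak with a score of 3100 was counted at all 10, at Lin37 beyond the locus end that faces Hspb6. That score is shared by 26.8% of the peaks in that list, so it gives no order. Scores for H3K9ac ran over the genes from 127.9 at Rbl2 to 1120 at E2f4. Lin37 had separate H3K4me3 and H3K9ac peaks near both ends of its short locus, of which the one over its own start had scores of 2690 and 390.7.

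Levels of the 6 NuRD subunits were given per region in unmodified cells, as log2(RPKM + 1) (reads per kilobase, scaled to library size). For each gene the region of highest H3K4me3 within 2 kb of a locus end was taken. This region spans the start of the gene at Mybl2, E2f4, Rbl1, Rbl2 and Foxm1 and not at Lin9, Lin37, Lin52, Lin54 and Tfdp1. For Lin54 the more upstream annotated start is meant, and whether its region spans the further start downstream was not tested. The RBBP4 level was highest at Rbl1, 2.80 from 90 reads (exact 95% Poisson interval 72.4 to 111), and at Mybl2, 2.63 from 111 reads (91.3 to 134). Foxm1, Lin9, Lin54, Rbl2 and Tfdp1 lay close together between 2.25 and 2.30. Lin52 at 1.58, Lin37 at 1.31 and E2f4 at 1.17 were lowest, from 12, 8 and 13 reads. Among such regions of 10734 expressed genes, Rbl1 and Mybl2 were above 95.7% and 89.5% and E2f4 above 5.67%. The intervals cover counting error only, and that of Tfdp1, from 10 reads in a region of 286 bp (4.80 to 18.4 reads), does not separate it from its neighbours in this order. The order also depends on the region. In the region that spans the start, the more upstream one at Lin54, RBBP4 was at 2.71 from 27 reads at Lin54, above Mybl2. It was at 2.50 from 80 reads at Lin9 and at 2.07 from 26 reads at Lin52. At Tfdp1, the region before the start that overlaps both RBBP4 peaks had 2.02 from 42 reads. Rbbp4 itself stood at 2.85 from 120 reads.

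The other subunits were lower than RBBP4 at most of these regions. MTA1 ran from 0.70 at E2f4 to 1.70 at Lin9, and CHD4, the remodelling ATPase of NuRD, from 0.47 at Tfdp1, where it had 1 read, to 1.87 at Rbl2. HDAC2, a deacetylase subunit, ran from 1.33 at Lin37 to 2.44 at Rbl2. RBBP4 was above each of the other 5 subunits at Lin9, Lin54, Mybl2, Rbl1, Tfdp1 and Foxm1, 6 of 10, where 69.2% of expressed genes had RBBP4 above all others. That share is near the background, and levels from different antibodies are no measure of the amounts of protein. RBBP4 minus the mean of the other 5 had a median of 0.85 over the 10 genes, against 0.65 over all expressed genes with a region, and a range of 0.11 at E2f4 to 1.21 at Rbl1. Rbl1 (1.21), Tfdp1 (1.18) and Mybl2 (1.14) were above 95.3%, 94.3% and 92.7% of expressed genes. E2f4 (0.11), Lin37 (0.12) and Lin52 (0.12) were above only 7.44%, 7.62% and 7.88%. The counting error of this difference had a median of 0.24 and was largest at Tfdp1, 0.41. The value was 0.57 in the Tfdp1 region that overlaps its RBBP4 peaks. In the region that spans the start it was 0.47 at Lin52, 1.18 at Lin9 and, at the more upstream start, 1.25 at Lin54.

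**Figure D5:**
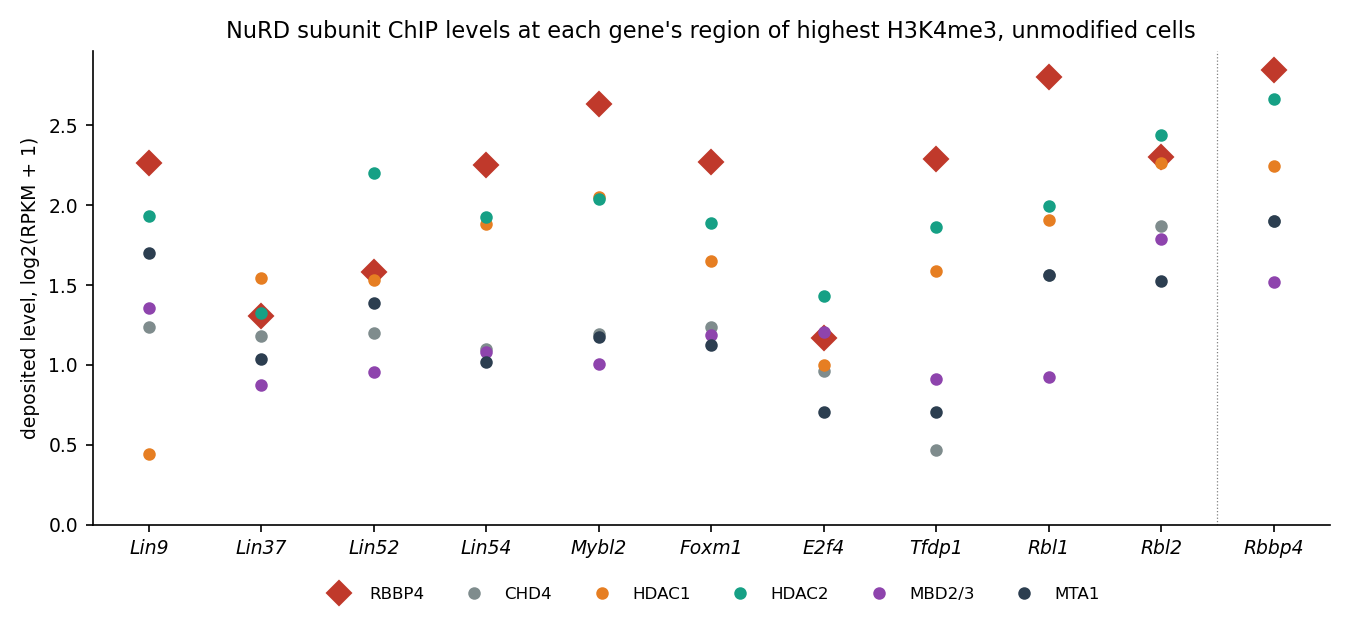
Deposited level, log2(RPKM + 1), of 6 NuRD subunits at the region of highest H3K4me3 of each listed gene and of Rbbp4 in unmodified cells, 1 library per antibody, RBBP4 as red diamonds. RBBP4 is the highest point at 6 of the 10 listed genes, reaches 2.80 at Rbl1 and is 1.17 at E2f4.

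The share of each region covered by peaks was also deposited for the unmodified cells. A region with an RBBP4 peak lay within 2 kb of either end of 9 of the 10 genes, all but E2f4, where 79.0% of expressed genes had one. HDAC2 had 7 of 10 (51.6% of expressed genes), HDAC1 4 (31.4%), CHD4 2 (11.2%) and MBD2/3 2 (13.8%). MTA1 had 1 of 10 (13.1%), Lin37, in a region beyond the locus end that faces Hspb6. The RBBP4 and MBD2/3 peaks counted at Lin37 lay in that same region alone, covering 81.3% and 11.7% of it, and not at the Lin37 start. Within the regions of highest H3K4me3, RBBP4 peaks covered 100% at Lin9 and Tfdp1, 85.4% at Rbl1, 63.0% at Mybl2, 58.8% at Lin54, 51.5% at Rbl2 and 38.4% at Foxm1, and 0 at Lin37, Lin52 and E2f4. The region that spans the Lin52 start was covered to 34.6% by RBBP4 and to 16.0% by CHD4, while the one of highest H3K4me3 lies upstream and overlaps the end of Aldh6a1. MTA1 covered 0 of the region of highest H3K4me3 of all 10 listed genes and 14.4% of that of Rbbp4. Every region of the table holds a peak of at least 1 library, so these shares describe regions already chosen for binding.

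Tagged H3.3 in arrested cells was read at the same regions, and its values too depend on the region. Foxm1 had the highest level in both replicates, 3.02 and 3.01 from 434 and 583 reads, above 90.7% and 95.1% of expressed genes. Mybl2 had 1.75 and 2.02, and Rbl1 1.66 and 1.77. E2f4, lowest in RBBP4, had 2.63 and 2.24. Lin9 had 0.75 and 1.01, but from 3 and 6 reads in a region of 322 bp, and its region that spans the start had 1.94 and 1.92 from 74 and 98 reads. Tfdp1 had 1.35 and 1.22 from 6 and 7 reads, and its region that overlaps the RBBP4 peaks had 2.83 and 3.25 from 127 and 239 reads. The medians over expressed genes were 2.01 and 2.04. HA-H3.3 peaks lay in a region near all 10 listed genes in both replicates, where 75.7% and 82.1% of expressed genes had one.

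Neighbouring genes start or end within 2 kb of several of these loci, so a peak or a region there may belong to either gene. Besides Hspb6 at Lin37, these were Aldh6a1, 557 bp from Lin52, Exoc3l and Elmo3 beside E2f4, and Aktip, which overlaps Rbl2 by 346 bp. Foxm1 had Rhno1 beside it and 4933413G19Rik, which overlaps its locus by 377 bp. Rhno1 lies 96 bp from the Foxm1 locus start and was at 28.0, 27.6 and 21.7 FPKM in knockdown clones, against 35.5 and 29.8 FPKM in control clones. Aldh6a1 was at 15.4, 8.24 and 6.80 FPKM in knockdown clones, against 3.72 and 7.87 FPKM in control clones. Mybl2, Rbl1, Tfdp1 and Lin54, the genes with RBBP4 peaks in transduced cells, had no such neighbour.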

How the data were processed

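Per the submitters' processing notes, Bowtie, TopHat, Cufflinks, Cuffdiff, MACS2 and bedtools were used with mm9, without versions or roles. The RNA tables hold FPKM with confidence bounds as deposited, per the file headers. Region levels were deposited as RPKM columns whose values are log2(RPKM + 1), since read that way they give whole reads. Peak coverage was deposited as a fraction of each region. Peak scores are as deposited by the authors, 1 list per library. The sequential list gives pileup signal, −log10 p and q values and fold enrichment from MACS 2.1.1.20160309, per the file headers. Input libraries were not used here.

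Entries of a symbol were summed, genes with a mean of at least 1 FPKM were kept, and log2(FPKM + 1) was fitted with limma 3.58.1 in R 4.3.3 (lmFit, eBayes with trend, two-sided, Benjamini-Hochberg over 11728 genes). The fit was checked on simulated data with a common spread for all genes and changes larger than those of the listed genes. That check does not give the power of the test here. Libraries held an estimated 18.2 to 26.5 M fragments, from the deposited bounds taken as 2 SD of a Poisson count. Region libraries held 6.62 to 24.1 M reads, and the depth of the transduced-cell ChIP libraries is unknown. Locus starts were taken to count from 0, printed from 1. Intervals cover counting error only. Named genes were all 10 listed, Rbbp4, the H3.3 genes, and per list the 2 of highest level and the 2 of largest difference, with neighbours within 2 kb and the 3 genes most like Mybl2, Foxm1 and Rbl1, of which some are not reported here. The members and lists were chosen with earlier results of these data known.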

Additional observations from a re-analysis of the deposited data

How the results depend on the processing

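Each comparison was repeated under alternatives, 13 of them for RNA, and no listed gene passed the test in any (smallest adjusted p 0.218, limma, E2f4). Of 128 differences of listed genes under these alternatives, 118 kept their sign. Lin9 was 0.0918 with array weights and -0.61 to 0.0939 with 1 clone left out. Lin52 was 0.0353 after quantile normalization and -0.14 to 0.0581 with 1 clone left out, and Rbl2 was -0.17 with array weights and -0.22 to 0.12. Among the genes of other lists, leaving out a clone gave -0.29 to 0.0179 for Rbbp7, -0.62 to 0.15 for E2f5, -0.45 to 0.0056 for E2f3 and -1.74 to 0.0213 for Ccnd1, and array weights gave 0.27 for E2f5. At a filter of 5 FPKM, Lin9 and Lin52 were not tested. The number of genes called, 4, became 12 with array weights and 8 to 30 with 1 clone left out, where the lone control clone is assumed to vary like the knockdown clones. The median of the partners became 0.0849 with array weights, and that of the regulators -0.39 to -0.10 with 1 clone left out. The median of the G2/M targets turned to 0.0786 without knockdown clone 1 and 0.14 with array weights. The cause of these changes was not tested. Clones share only numbers: the deviations of same-numbered clones correlated at -0.25 and -0.10. With the clone number as a replicate block, 0 genes were called by limma and 504 had an unadjusted p under 0.05, Rbl2 became -0.22, E2f5 0.15 and the median of the regulators -0.385, the values without knockdown clone 3, which has no partner.

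MTA1 peaks of control cells were at 2 listed genes (Lin54 and Mybl2) within 5 kb and within 2 kb of the whole locus, and at 0 among peaks with a score of at least 100. At that score H3K27ac remained at 1 gene, Rbl1, and the 4 RBBP4 and MTA1 lists together held 5 gene entries in place of 8. Adding GGCGGGA raised the genes with E2F-type letters to 6 of 7. The median of RBBP4 minus the other subunits stayed between 0.74 and 1.01 under 4 alternatives. Depth limits the levels of short regions, such as that of Tfdp1 with 1 CHD4 read.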
